A study of Mus musculus with 18 samples.

Results

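The genes described here encode the corticotropin-releasing factor (CRF) and PACAP stress peptides, their receptors and the CRF-binding protein. They are Crh, Crhr1, Crhr2, Crhbp, Adcyap1 and Adcyap1r1, taken by symbol and matched to the Ensembl identifiers of the count table, which gave 6 of 55401 genes. All 6 were among the 18994 genes with enough reads to be tested. RNA sequencing was done on 2 regions, the BNST (bed nucleus of the stria terminalis) and the prelimbic medial prefrontal cortex (mPFC), dissected from wild-type male C57BL/6 mice aged 6 to 8 weeks. By the animal numbers in the study's supplementary column names, the libraries of the 2 regions come from the same mice after formalin and after CFA, while in controls 1 library of each region has no partner from the same mouse. By the study's methods the control mice received no injection, while its sequencing figure captions call them sham-treated. The acute pain mice received 10 µL of 1% formalin in the hind paw and were killed after 24 h, and the persistent pain mice received 10 µL of 50% complete Freund's adjuvant (CFA), an inflammatory emulsion, and were killed after 72 h. Each region and treatment had 3 libraries, 18 in all. The agent and the time after injection changed together, and by the methods no group received a vehicle injection, so these cannot be told apart.

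CRF, the product of Crh, starts the hormonal stress response when hypothalamic neurons release it, and in the extended amygdala and cortex it acts as a local neuropeptide through the receptors encoded by Crhr1 and Crhr2. The protein encoded by Crhbp binds CRF outside the cell and limits how much of it reaches the receptors. PACAP, the product of Adcyap1, acts through the PAC1 receptor encoded by Adcyap1r1, couples like the CRF receptors mainly to stimulatory G proteins and cAMP, and is known in the BNST for its part in stress and anxiety-like behaviour.

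The libraries held between 14781315 and 23408503 counted reads. Dissection markers matched the labels in part: the 3 GABAergic neuron genes Gad1, Gad2 and Slc32a1 were all higher in control BNST than in control mPFC, 5 of 8 tested markers of the BNST and extended amygdala were higher, and 8 of 9 cortical pyramidal markers were lower. By the same test, described below, 26.6% of all genes tested differed between these groups in either direction. The BNST libraries also differed among themselves in the genes of neighbouring tissues. The summed level of 10 choroid plexus genes ran from 35 to 17800 CPM and that of 8 striatal genes from 227 to 3250 CPM over the 9 BNST libraries. CPM are reads on the counts-per-million scale, with library totals scaled by the TMM method. In these bulk samples fewer cells of a type and less RNA per cell cannot be told apart.

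Adcyap1 carried the largest treatment difference of the 6 genes, so the sequence just before its start is shown. It lies on chromosome 17 at 93199017 to 93206537 on the plus strand (GRCm38, GENCODE M21). The stretch below holds the 150 bases before the start, chr17:93198867-93199016, plus strand, from RefSeq on GRCm38.p6. The capitals mark TGACG, the core of the cAMP response element, the DNA motif bound by the transcription factor CREB.
Adcyap1: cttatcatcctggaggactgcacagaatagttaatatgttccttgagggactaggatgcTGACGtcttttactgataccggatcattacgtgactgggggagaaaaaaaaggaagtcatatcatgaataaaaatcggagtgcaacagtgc
The core begins 91 bases before this start. Another window of Adcyap1, for a start further downstream, holds the same core 242 bases before that start. Windows from 250 bases before to 50 after the start were at hand for 5 of the 6 genes, and Crh had none in the table. Searched on both strands, TGACG was found in the windows of Adcyap1 and Crhbp and in 20.8% of all 32851 windows, the whole element TGACGTCA in none of the 5 genes and in 1.79% of windows, and AGAACA, part of the glucocorticoid response element, in none of the 5 and in 19.0%. A match describes the letters and not a bound site.

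The other genes are spread over the genome. Crh lies on chromosome 3 at 19693401 to 19695396 on the minus strand, Crhr1 on chromosome 11 at 104132855 to 104175523 on the plus strand, and Crhbp on chromosome 13 at 95431371 to 95444924 on the minus strand. Crhr2 (55090049 to 55133016, minus strand) and Adcyap1r1 (55451978 to 55501451, plus strand) share chromosome 6, where 319.0 kb and 4 protein-coding genes lie between them. One of those is Ghrhr, which encodes another receptor of the same secretin family. No other annotated gene overlaps any of the 6, and reads were counted over their exons.

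Levels can be compared between genes only per length, for which TPM (the transcripts-per-million scale) were computed from the annotated exon length. Adcyap1r1 was the most abundant transcript of the system in all 18 libraries. Its level was 210 ± 37.1 TPM (SD, n = 3) in control BNST and 126 ± 7.73 TPM in control mPFC. The next genes in control mPFC were Crhr1 at 45.1 ± 9.4 TPM and Crhbp at 38.4 ± 0.916 TPM, whose ranges overlapped, then Adcyap1 at 27.9 ± 3.1 TPM and Crh at 15 ± 0.855 TPM. Crhr2 was last there, at 0.838 ± 0.222 TPM. Control BNST had another order below Adcyap1r1. Crh had 20.5 ± 9.55 TPM, Crhr1 15.7 ± 1.05 TPM, Crhbp 10.6 ± 2.44 TPM, Crhr2 8.72 ± 7.84 TPM and Adcyap1 6.25 ± 3.18 TPM, and of these neighbours in order only Crhr1 and Crhbp had libraries that did not overlap.

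**Figure D1:**
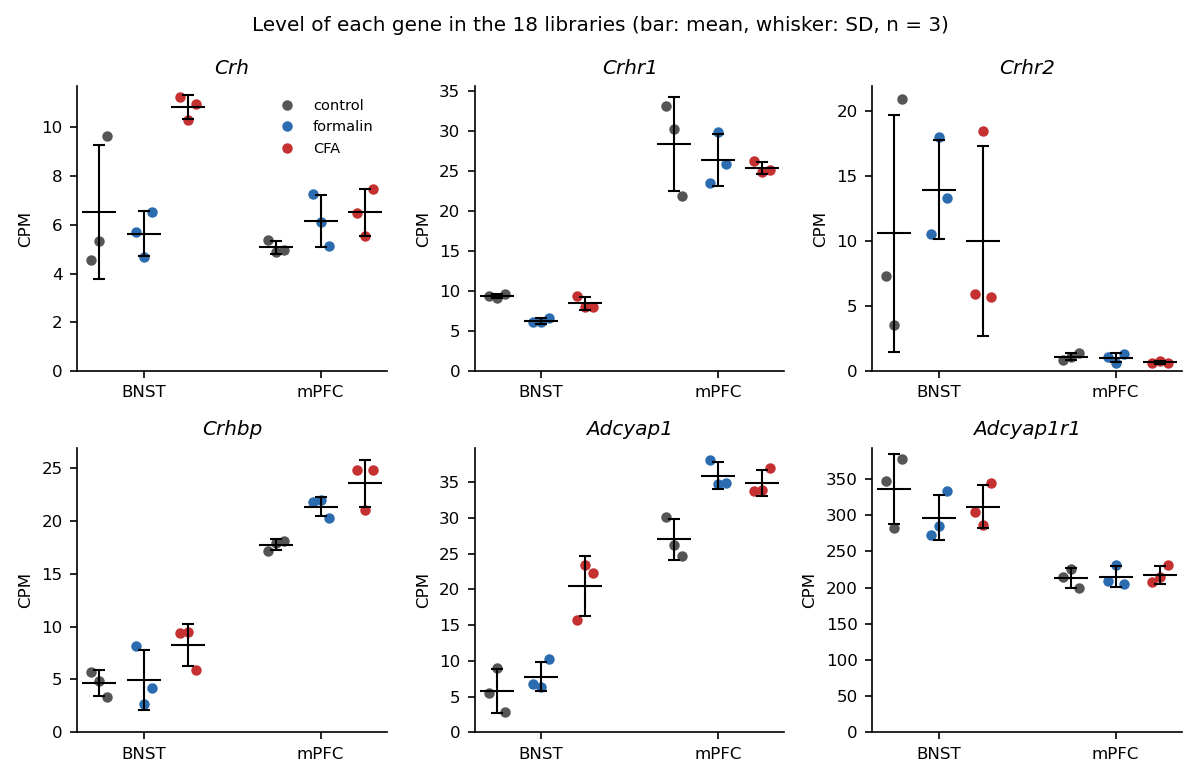
Level of the 6 genes in the 18 libraries in CPM (linear axis from 0) by region and treatment. Points are libraries, the bar is the mean and the whisker the SD of 3 libraries. In BNST the 3 Adcyap1 values after CFA, 15.7 to 23.4 CPM, lie above the other 6, while Crhr2 spreads within each BNST group.

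The regional comparison asked where each part of the system is transcribed. In control mice 5 of the 6 genes differed between BNST and mPFC by edgeR's quasi-likelihood test (adjusted p under 0.05 and a log2 fold change over 0.5), beside 26.6% of all genes tested. The mPFC held more Adcyap1, Crhr1 and Crhbp and the BNST more Crhr2 and Adcyap1r1, and Crh did not pass.

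Among the ligands, Adcyap1 had 5.56, 9.02 and 2.85 CPM in the 3 control BNST libraries and 30.2, 26.2 and 24.6 CPM in control mPFC. The groups did not overlap, as those of 48.5% of all genes tested did not, and the difference was −2.21 ± 0.28 (log2, BNST minus mPFC, SE, edgeR adjusted p = 1.8e-05). Crh had 4.57, 5.33 and 9.66 CPM in control BNST and 5.36, 4.89 and 4.96 CPM in control mPFC. These groups overlapped, with a log2 difference of 0.36 (95% interval −0.11 to 0.83, edgeR adjusted p = 0.22).

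Among the receptors, the CRF receptors lay in opposite directions. Crhr1 had 9.39, 9.13 and 9.66 CPM in control BNST and 33.1, 30.2 and 21.9 CPM in control mPFC, a log2 difference of −1.6 ± 0.13 (SE, edgeR adjusted p = 7e-08). Crhr2 had 7.29, 3.57 and 20.9 CPM in control BNST and 0.841, 1.04 and 1.42 CPM in control mPFC, a log2 difference of 3.26 ± 0.65 (SE, edgeR adjusted p = 0.0011). The mPFC value of Crhr2 rests on 9 to 26 reads a library over the 9 mPFC libraries, for which counting error alone is 19.6% to 33.3%. In TPM, the ratio of Crhr1 to Crhr2 was at least 32.1 in every mPFC library and 0.699 to 5.31 in the BNST libraries. Adcyap1r1 had 348, 283 and 377 CPM in control BNST and 214, 226 and 199 CPM in control mPFC. It was higher in every BNST library, by 0.66 ± 0.11 on the log2 scale (SE, edgeR adjusted p = 8.1e-05).

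Crhbp, which buffers CRF, had 5.75, 4.88 and 3.34 CPM in control BNST and 17.1, 17.9 and 18.1 CPM in control mPFC. The log2 difference was −1.93 ± 0.29 (SE, edgeR adjusted p = 7.2e-05). In TPM the ratio of Crhbp to Crh was 0.254 to 1.04 over the BNST libraries and 2.2 to 2.9 over the mPFC libraries.

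After formalin 4 of the 6 genes passed between the regions, beside 33.3% of all genes, and after CFA 6 of 6, beside 38.1%. Each of Crhr1, Crhr2, Crhbp and Adcyap1 passed in the same direction under each treatment. Adcyap1r1 after formalin had an adjusted p of 0.0014 by edgeR but a log2 difference of 0.47, under the minimum. For Adcyap1 the regional difference was −2.19 after formalin and −0.77 after CFA (log2, edgeR adjusted p = 1.1e-05 and 0.021). The latter did not pass without CFA replicate 1 of the BNST or CFA replicate 3 of the mPFC (edgeR adjusted p = 0.087 and 0.06). Adcyap1r1 after CFA fell under the minimum fold change without CFA replicate 3 of the BNST or CFA replicate 1 of the mPFC (log2 0.44 and 0.48), and after formalin it passed without formalin replicate 1 of the BNST or formalin replicate 2 of the mPFC (log2 0.52 in both). Crh was higher in BNST than mPFC after CFA, by 0.73 ± 0.22 (log2, SE, edgeR adjusted p = 0.0093). After each injection the libraries of the 2 regions come from the same mice, and in controls 2 of the 3 libraries of each region do.

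The comparisons of treatments asked how the system stood after acute and after persistent pain. In BNST, the ligand transcripts Adcyap1 and Crh were higher after CFA than in control mice, and no receptor transcript passed. These were 2 of 6 genes, beside 11.9% of all genes tested (4.89% higher and 7.06% lower). The median log2 fold change of the 6 was 0.33, and that of all genes tested 0.01.

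Adcyap1 in BNST had 5.56, 9.02 and 2.85 CPM in controls, 6.84, 6.4 and 10.2 CPM after formalin, and 15.7, 23.4 and 22.3 CPM after CFA. Every CFA library lay above every control and formalin library, and the control and formalin libraries overlapped. Groups did not overlap, in either direction, for 31.5% of all genes tested between CFA and control and 32.1% between formalin and CFA. The rise after CFA was 3.5-fold, 1.81 ± 0.28 on the log2 scale (SE, 95% interval 1.21 to 2.41, edgeR adjusted p = 0.00046). The gap to the PAC1 receptor narrowed in the same libraries: in TPM, Adcyap1r1 was 18 to 75.8 times Adcyap1 in controls, 18.7 to 25.5 times after formalin and 7.0 to 11.1 times after CFA.

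Crh in BNST had 4.57, 5.33 and 9.66 CPM in controls, 5.72, 4.66 and 6.51 CPM after formalin, and 11.3, 10.3 and 10.9 CPM after CFA. Again the CFA libraries lay above all others, beside the same shares of all genes without overlap. Control replicate 3, at 9.66 CPM, came nearest to them. The rise after CFA was 1.66-fold, 0.73 ± 0.22 on the log2 scale (SE, edgeR adjusted p = 0.023). This call rests on few libraries. It was lost without control replicate 1, control replicate 2 or CFA replicate 1 of the BNST (adjusted p = 0.095, 0.085 and 0.055 by edgeR), and without control replicate 3 the log2 difference was 1.13. It was also lost with the 9 BNST libraries fitted alone (0.72, adjusted p = 0.11 by edgeR).

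Formalin and CFA were compared directly in BNST, where 2 of the 6 genes passed, beside 6.87% of all genes tested. They were again Crh and Adcyap1, and since this comparison uses the same CFA libraries as the last, its values are given beside those and not as a second support. For both the groups did not overlap, as for 32.1% of all genes. Crh had a log2 difference of −0.94 ± 0.22, formalin minus CFA (SE, edgeR adjusted p = 0.0094), and Adcyap1 had a difference of −1.38 ± 0.27 (SE, edgeR adjusted p = 0.0049). By edgeR the adjusted p of Crh was 0.053 without formalin replicate 2, and with the 9 BNST libraries fitted alone it was 0.089 for Crh and 0.079 for Adcyap1.

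Formalin against control passed for none of the 6 genes in BNST by edgeR, beside 0.3% of all genes tested. At an unadjusted p under 0.05 there was 1 gene, Crhr1, which DESeq2 called and limma-voom did not. Adcyap1 had a log2 difference of 0.43 (95% interval −0.19 to 1.05) and Crh of −0.21 (95% interval −0.68 to 0.26).

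**Figure D2:**
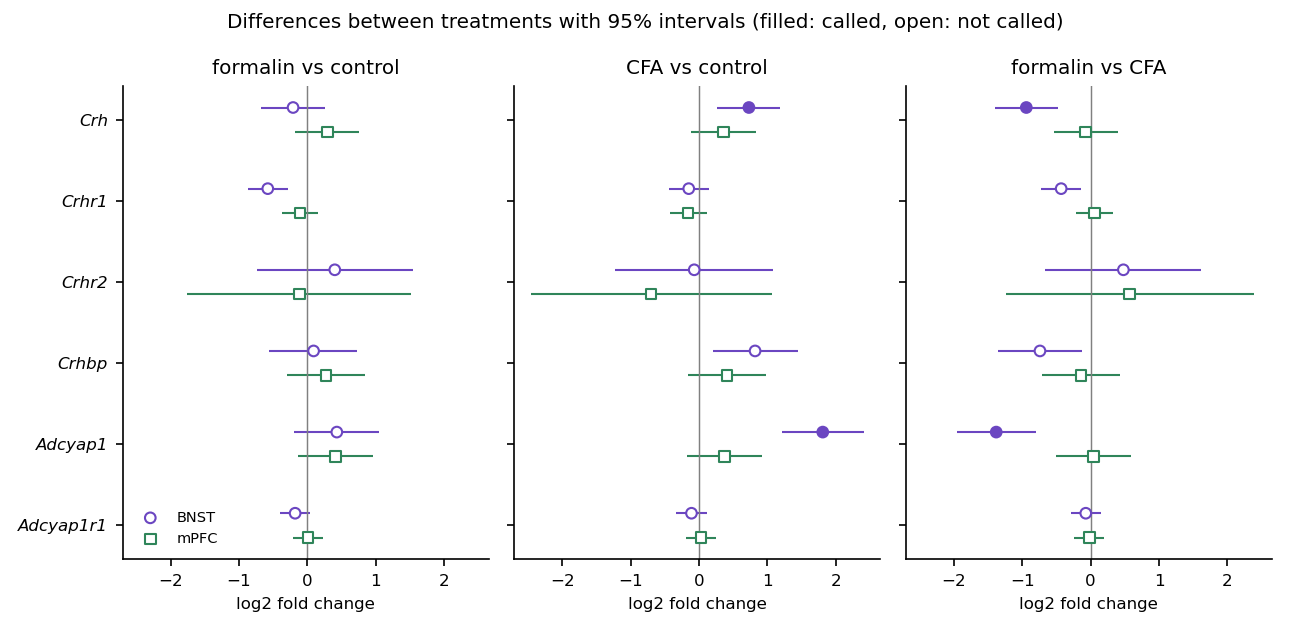
Log2 fold change of the 6 genes between treatments, with 95% intervals from edgeR, in BNST (circles) and mPFC (squares). Filled symbols passed an adjusted p under 0.05 and a log2 fold change over 0.5. The filled symbols are Crh and Adcyap1 in BNST, in both comparisons with CFA.

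No receptor transcript passed in a comparison of treatments in BNST by edgeR. Crhr1 in BNST had 9.39, 9.13 and 9.66 CPM in controls, 6.07, 6.07 and 6.68 CPM after formalin, and 9.38, 7.98 and 8.03 CPM after CFA. All 3 formalin libraries lay below all 6 others. The difference from control was −0.58 ± 0.14 (log2, SE, edgeR adjusted p = 0.07), and 22.4% of all genes tested had control and formalin groups that did not overlap. With DESeq2 the adjusted p was 0.031, and by edgeR it was 0.041 without control replicate 3 of the mPFC and 0.017 without CFA replicate 2 of the BNST. Against CFA, Crhr1 had a difference of −0.43 with an edgeR adjusted p of 0.046, under the minimum fold change.

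Crhr2 in BNST varied more within groups than between them. It had 7.29, 3.57 and 20.9 CPM in controls, 10.5, 18.1 and 13.3 CPM after formalin, and 5.91, 18.5 and 5.73 CPM after CFA. Its 95% interval for CFA against control ran from −1.23 to 1.08 on the log2 scale, so a change of up to about that size was not detectable here. Within the injected groups Crhr2 was highest in the library with the highest choroid plexus level: the summed level of the 10 choroid plexus genes was 2940, 8870 and 5720 CPM after formalin, in the same order as Crhr2, and 218, 17800 and 178 CPM after CFA, where replicate 2 was high in both. In controls it was 35, 746 and 66.4 CPM, and there the library with the highest sum had the least Crhr2. The part of choroid plexus tissue in the Crhr2 values was not tested.

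Adcyap1r1 in BNST had 348, 283 and 377 CPM in controls, 273, 285 and 333 CPM after formalin, and 304, 287 and 345 CPM after CFA. Its groups overlapped, and the 95% intervals were −0.4 to 0.04 for formalin and −0.33 to 0.11 for CFA against control (log2). These are the narrowest intervals of the 6 genes in those comparisons. The BNST libraries held 4631 to 7829 reads of it.

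Crhbp in BNST had 5.75, 4.88 and 3.34 CPM in controls, 8.13, 2.66 and 4.17 CPM after formalin, and 9.38, 9.46 and 5.92 CPM after CFA. All 3 CFA libraries lay above the control libraries. In that comparison 31.5% of all genes tested had groups that did not overlap. The difference was 0.82 ± 0.29 (log2, SE, edgeR adjusted p = 0.056), and it did not pass. It passed with DESeq2 (adjusted p = 0.018) and by edgeR without control replicate 1, formalin replicate 1, formalin replicate 2 or CFA replicate 3 of the BNST (adjusted p = 0.049, 0.0084, 0.02 and 0.025). Against formalin the difference was −0.74, formalin minus CFA, and it did not pass (edgeR adjusted p = 0.097). By edgeR it was −1.26 without formalin replicate 1 (adjusted p = 0.0052). This difference passed with limma-voom (−0.86, adjusted p = 0.045) and not with DESeq2.

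Markers of neighbouring tissues differed between the same BNST groups. Between CFA and control in BNST, 4.89% of all genes tested passed as higher and 7.06% as lower. Between formalin and CFA 6.87% passed in either direction. Of 7 medial habenula genes, 6 were higher after CFA than in controls. The summed level of the 7 was 24.6 to 55.2 CPM in controls, 23.1 to 34.2 CPM after formalin and 91.5 to 182 CPM after CFA. This sum is not specific to the habenula. It was 99.2 to 103 CPM in control mPFC, where Nwd2 alone had a mean of 91 CPM. In BNST, Pou4f1 and Chrnb3 were at 0 in at least 1 control library. They were at 4.53 CPM or more and 3.37 CPM or more in every CFA library. In control mPFC, Pou4f1 was at 0 and Chrnb3 at 2.13 to 2.32 CPM. All 8 striatal genes were lower after CFA, with a summed level of 1310 to 3250 CPM in controls, 1140 to 1620 CPM after formalin and 227 to 589 CPM after CFA. Of 8 tested hypothalamic genes, Avp and Trh were higher after CFA, with a summed level of 23.5 to 50.1 CPM in controls, 17.1 to 29.9 CPM after formalin and 47.2 to 128 CPM after CFA. Of 6 thalamic genes 1 was higher, and the sums were 38 to 311 CPM in controls, 125 to 211 CPM after formalin and 235 to 429 CPM after CFA. For choroid plexus the sum was 35 to 746 CPM in controls, 2940 to 8870 CPM after formalin and 178 to 17800 CPM after CFA, where 1 library, replicate 2, held the high value. Without that library the difference of Adcyap1 between CFA and control was 1.7 (edgeR adjusted p = 0.0024) and that of Crh 0.77 (edgeR adjusted p = 0.031). Of 8 tested markers of the BNST and extended amygdala, Calcrl was higher after CFA than in controls, and Prkcd, Cartpt and Esr1 were lower after formalin than after CFA. The summed level of that list was 175 to 298 CPM in controls, 167 to 190 CPM after formalin and 234 to 439 CPM after CFA. Pvalb and Htr3a, 2 of 7 cortical interneuron markers, were also higher after CFA than in controls, as was Gfap, 1 of 5 astrocyte markers. The other interneuron markers did not pass: means of Vip and Calb2 were higher after CFA, and those of Npy, Lhx6 and Sst lower. The part of these genes in the values of Adcyap1 and Crh was not tested.

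**Figure D3:**
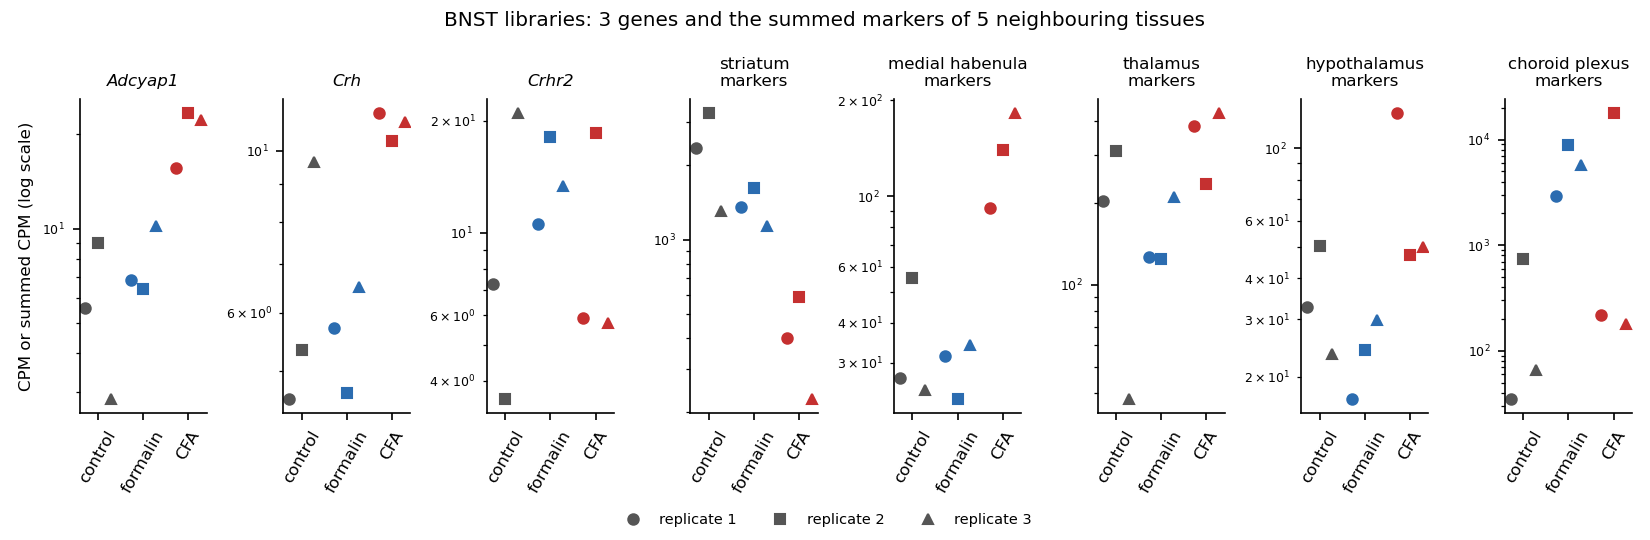
Adcyap1, Crh and Crhr2 (CPM) beside the summed CPM of 5 marker lists in the 9 BNST libraries, on log axes with their own ranges. Colours are treatments and symbols are replicates. The CFA libraries are above the others for Adcyap1, Crh and the medial habenula genes and below them for the striatal genes, at 227 to 589 CPM.

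In mPFC none of the 6 genes passed in any comparison of treatments by edgeR, DESeq2 or limma-voom, and none had an unadjusted p under 0.05 by edgeR. The shares of all genes that passed were 0.269% for formalin against control, 0.632% for CFA against control and 0.932% for formalin against CFA.

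Adcyap1 in mPFC had 30.2, 26.2 and 24.6 CPM in controls, 38.1, 34.8 and 34.8 CPM after formalin, and 33.7, 33.9 and 37 CPM after CFA. Both injected groups lay above the controls without overlap, and 26.1% of all genes for formalin and 25.6% for CFA had groups that did not overlap. The log2 differences were 0.41 (95% interval −0.14 to 0.96, edgeR adjusted p = 0.52) and 0.37 (95% interval −0.18 to 0.92, edgeR adjusted p = 0.59). With the 9 mPFC libraries fitted alone they were 0.41 and 0.36 (edgeR adjusted p = 0.0051 and 0.0091), still under the minimum of 0.5 for a call. Both use the same controls.

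Crhbp in mPFC had 17.1, 17.9 and 18.1 CPM in controls, 21.8, 22 and 20.3 CPM after formalin, and 24.8, 21 and 24.8 CPM after CFA. Again the injected groups lay above the controls, with log2 differences of 0.27 and 0.41 (edgeR adjusted p = 0.73 and 0.55). Fitted on the 9 mPFC libraries alone, the latter was 0.41 with an edgeR adjusted p of 0.0087, also under the minimum. Crh in mPFC had 5.36, 4.89 and 4.96 CPM in controls, 7.25, 6.12 and 5.13 CPM after formalin, and 6.5, 5.56 and 7.47 CPM after CFA. All 3 CFA libraries lay above the controls, by 0.36 on the log2 scale (edgeR adjusted p = 0.53).

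Crhr1 had 33.1, 30.2 and 21.9 CPM in controls, 23.5, 29.9 and 25.9 CPM after formalin, and 26.2, 24.9 and 25.1 CPM after CFA. Adcyap1r1 kept to 199 to 232 CPM over all 9 libraries, with a 95% interval of −0.19 to 0.25 for CFA against control (log2). Crhr2 had 0.841, 1.04 and 1.42 CPM in controls, 1.08, 0.619 and 1.3 CPM after formalin, and 0.591, 0.794 and 0.644 CPM after CFA. Its CFA libraries lay below the controls, with a log2 difference of −0.7 and an interval of −2.46 to 1.07 (edgeR adjusted p = 0.78), so a difference of this size was not detectable here.

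Whether a treatment difference itself differed between the regions was tested as an interaction. For CFA against control 1 of the 6 genes passed, Adcyap1, beside 4.17% of all genes tested. Its rise was 1.44 ± 0.38 larger in BNST than in mPFC on the log2 scale (SE, 95% interval 0.63 to 2.25, edgeR adjusted p = 0.042). For formalin against CFA Adcyap1 alone passed as well, at −1.42 ± 0.37 (SE, edgeR adjusted p = 0.037), beside 4.17% of all genes. Crh did not pass there (−0.87, edgeR adjusted p = 0.11) or for CFA against control (0.37, edgeR adjusted p = 0.55). For formalin against control none of the 6 passed by edgeR, DESeq2 or limma-voom, beside 0.158% of all genes, and 1 had an unadjusted p under 0.05. The calls for Adcyap1 sit near the threshold: with each of the 18 libraries left out in turn, 5 of 18 fits kept the first and 8 of 18 the second, with log2 values from 1.12 to 1.91 and from −1.67 to −1.29. The first was kept when BNST control replicate 2 or 3, formalin replicate 2 or 3 or CFA replicate 1 was left out. The second was kept without BNST control replicate 1, 2 or 3, formalin replicate 3, CFA replicate 1 or 2, or mPFC control replicate 1 or 3.

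**Figure D4:**
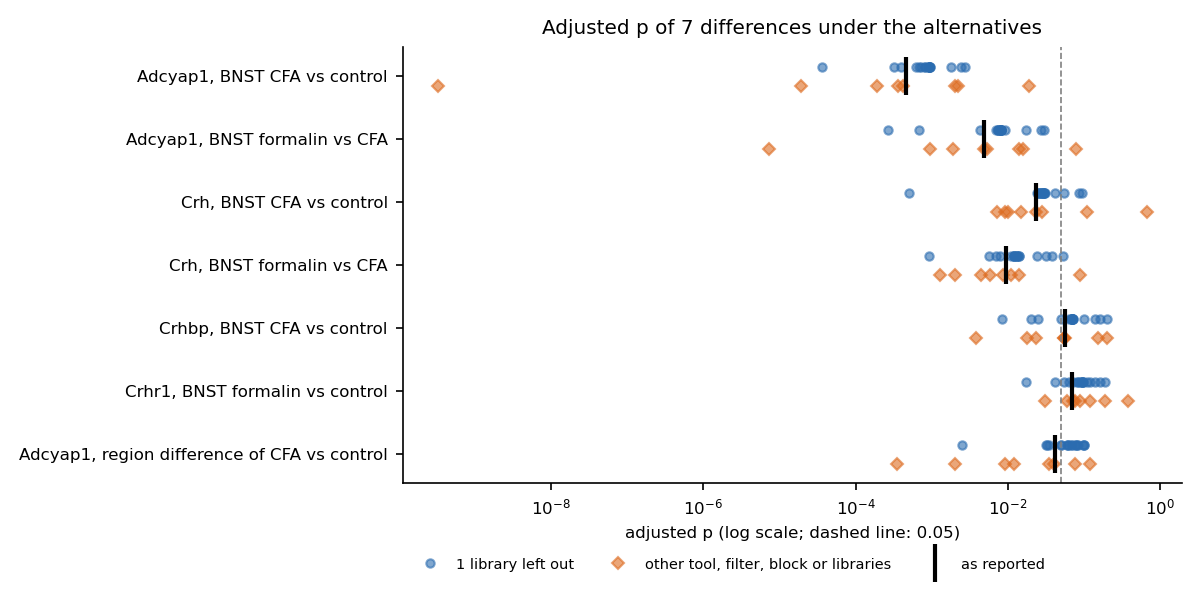
Adjusted p (log axis, dashed line at 0.05) of 7 differences under each alternative. The black bar is the value reported, circles leave out 1 library, and diamonds change the tool, filter, scaling, block or set of libraries. All values of Adcyap1 for CFA against control in BNST lie left of 0.05, and those of the other 6 differences fall on both sides of it.

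The relatives that share these receptors were scarce or regional. The urocortins are the other CRF receptor ligands. Ucn and Ucn2 were too low to test, with at most 7 reads in a library. Ucn3, a ligand of Crhr2, had 13, 22 and 5 reads in control BNST, 7, 5 and 27 after formalin and 54, 29 and 31 after CFA, and 0 reads in all 9 mPFC libraries. It was called higher in BNST than in mPFC under all 3 treatments, while its difference for CFA against control in BNST did not pass (1.29 ± 0.58, log2, SE, edgeR adjusted p = 0.13).

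Of 11 PACAP and secretin family relatives 6 were tested. Vipr1 and Vipr2 encode the VPAC receptors, which bind PACAP as well as the peptide VIP. Vipr1 in BNST had 8.28, 13.4 and 6.5 CPM in controls, 11.5, 9.05 and 5.19 CPM after formalin, and 3.86, 4.09 and 3.15 CPM after CFA, and was lower after CFA than in controls at a log2 difference of −1.35 ± 0.27 (SE, edgeR adjusted p = 0.0029). It was the 1 of the 6 that passed there, beside 11.9% of all genes, with 2 at an unadjusted p under 0.05. Vipr2 had 3.77, 5.84 and 1.67 CPM in controls, 1.65, 2.49 and 2.68 CPM after formalin, and 6.13, 6.7 and 7.37 CPM after CFA. It passed for formalin against CFA (−1.55 ± 0.42, log2, SE, edgeR adjusted p = 0.02) and not for CFA against control (0.83, edgeR adjusted p = 0.15). Vipr1 also passed for formalin against CFA, in the other direction, higher after formalin. These were 2 of 6 there, beside 6.87% of all genes tested. Between regions in control mice Vipr2 and Glp1r, the GLP-1 receptor gene, were higher in BNST and Vip and Vipr1 higher in mPFC. These 4 of 6 stand beside 26.6% of all genes tested. Glp1r spread widely over the control BNST libraries, from 4.31 to 97.8 CPM. The log2 difference of Vip was −4.62 ± 0.45 (SE, edgeR adjusted p = 2.2e-06), from 1.42 to 34.9 CPM on average.

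Of 6 peptide processing genes, 1 passed for CFA against control in BNST, where 11.9% of all genes tested passed. That was Pcsk1, which encodes the prohormone convertase PC1/3, with means of 31.7 CPM in controls, 37.3 CPM after formalin and 56.4 CPM after CFA. Its rise was 0.83 ± 0.1 (log2, SE, edgeR adjusted p = 3.2e-05), and it was larger in BNST than in mPFC by 0.72 (edgeR adjusted p = 0.0065). The list median was 0.17 and that of all genes 0.01.

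Of 32 genes from the receptor to cAMP signalling, 4 passed for CFA against control in BNST, all lower, and the list median was −0.04, beside 0.01 for all genes. Of all genes 11.9% passed there, 7.06% in the lower direction, so the list's share in either direction was near the background. They were Gnal, the stimulatory G protein alpha subunit of striatal neurons (−0.84), Adcy5, the main striatal adenylyl cyclase (−1.58), the protein kinase A subunit gene Prkar2b (−0.63) and the CREB coactivator gene Crtc1 (−0.67), on the log2 scale. Gnal also was lower after formalin (−0.57, edgeR adjusted p = 0.023), the 1 of 32 that passed there. After CFA, Gnal (231 to 276 CPM), Adcy5 (223 to 275 CPM) and the striatal marker sum (227 to 589 CPM) were below all controls. After formalin the striatal sums, 1140 to 1620 CPM, overlapped those of controls, 1310 to 3250 CPM. Gnal did not overlap there, at 273 to 344 CPM after formalin and 433 to 492 CPM in controls. The part of striatal tissue in the values of Gnal and Adcy5 was not tested. In mPFC 0 of 32 passed by edgeR in each comparison of treatments, with 2 to 5 at an unadjusted p under 0.05.

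Of 14 cAMP-responsive genes, the immediate early genes Junb (−1.1 ± 0.31) and Nr4a1 (−1.11 ± 0.17) were lower after CFA in BNST (log2, SE, edgeR adjusted p = 0.021 and 3e-04). These 2 of 14 stand beside 11.9% of all genes, a share near the background, and the list median was −0.04. In mPFC Nr4a1 (−0.74) and Dusp1 (−0.93) were lower after formalin, and Vgf, a neuropeptide precursor gene, was higher after CFA (0.59 on the log2 scale, edgeR adjusted p = 0.037). These were 2 of 14 and 1 of 14 genes, beside 0.269% and 0.632% of all genes tested. The list medians in mPFC were −0.19 after formalin and −0.1 after CFA, beside 0 for all genes in both.

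Of 6 corticosteroid receptor and target genes, 3 were higher after CFA in BNST and 2 in mPFC. Of all genes tested, 11.9% passed for CFA against control in BNST (4.89% higher) and 0.632% in mPFC. Fkbp5, a chaperone gene induced by glucocorticoids, rose by 0.65 ± 0.12 in BNST and 1.3 ± 0.13 in mPFC (log2, SE, edgeR adjusted p = 0.0012 and 0.00015). Tsc22d3, which encodes the glucocorticoid-induced leucine zipper, rose by 1.18 in BNST and 0.96 in mPFC (edgeR adjusted p = 0.00025 and 0.018). Sgk1, a kinase gene of the same response, rose by 2.48 in BNST (edgeR adjusted p = 1.1e-05) and had 0.9 in mPFC (edgeR adjusted p = 0.091). After formalin none of the 6 passed by edgeR in either region, with 2 in BNST and 0 in mPFC at an unadjusted p under 0.05. Of all genes, 0.3% passed there in BNST and 0.269% in mPFC. The list medians after CFA were 0.74 in BNST and 0.44 in mPFC, beside 0.01 and 0 for all genes.

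The genes whose pattern was most like each of the 6 were sought over the 9 libraries of a region, by Pearson's r of log2 CPM. The 9 points share treatments and tissue content, so r is a description. In BNST Adcyap1 was most like Ppia (r = 0.99) and Gemin7 (0.98), Crh like Zfp655 (0.97) and Actr10 (0.95), and Crhbp like Gmfb (0.97) and Snap29 (0.95). Crhr1 was most like Scaper and Slc41a2 (both 0.95), Crhr2 like Prdm16 (0.98) and Shroom4 (0.97), and Adcyap1r1 like Gm43668 (0.95). In mPFC the leading genes were Ndufaf4 and Sdcbp for Adcyap1 (both 0.97), Tmem256 and Aamdc for Crh (0.95 and 0.94), Wdr45b and Rpl32 for Crhbp (both 0.97), Strn4 and Sepsecs for Crhr1 (0.94 and 0.93) and Htatip2 and Ctu2 for Adcyap1r1 (0.92 and 0.91), and Crhr2 was too low there. Between members, Crh and Adcyap1 had r = 0.51 in BNST and 0.78 in mPFC, and Crh and Crhbp 0.43 and 0.82.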

How the data were processed

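Poly-A RNA was sequenced as paired-end 150 bp reads. The authors trimmed the reads with Trimmomatic 0.39, aligned them with HISAT2 2.2.1 to GRCm38 (mm10) and made gene counts with featureCounts 2.0.1. The deposited values are raw counts. The strand setting is not given in the sources used here. Genes were kept by edgeR's filter (minimum count 10, minimum total 15), which left 18994 of 55401 genes and 99.88% of the counts. Counts were scaled by TMM and tested with edgeR 4.0.16 (quasi-likelihood, 1 model over 6 groups, 12 residual degrees of freedom) in R 4.3.3, with Benjamini-Hochberg adjustment over all genes tested. A call required an adjusted p under 0.05 and a log2 fold change over 0.5. The authors had used DESeq2, which served here as an alternative (1.42.0), beside limma-voom (limma 3.58.1), other filters and scaling, left-out libraries and replicate blocks. The members and gene lists were chosen with earlier results of these data known. The genes named were the 6 members, called genes of the pathway lists, the receptor-sharing relatives, and the 2 genes of highest r per member and region, of which 1 is not reported here. The scripts were tested on simulated counts.

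Gene identifiers were matched to GENCODE M21, 54349 with the version and 55141 without. Replicates of a group differed by more than sampling noise (chi-square per degree of freedom 3.64 to 75). By the study's methods the replicates of a group are separate brains. The p-values of the 1 model rest on a spread estimated over all 18 libraries, both regions together. The chi-square values were 7.68 to 75 in BNST and 3.64 to 10.3 in mPFC, so this shared spread need not be that of either region. The column names of the study's supplementary tables number the animals, so that same-numbered libraries of the 2 regions come from the same mouse in 8 pairs. Deviations of these pairs from their group means correlated at −0.03 to 0.17.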

Additional observations from a re-analysis of the deposited data

Results flagged for a closer look

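The difference between CFA and control for Adcyap1 differed between the 2 regions by the interaction test: 1.44 on the log2 scale, BNST minus mPFC, with means of 5.81 and 20.4 CPM in BNST and 27 and 34.9 CPM in mPFC (edgeR adjusted p = 0.042). The difference between formalin and CFA also differed between the regions, by −1.42 (edgeR adjusted p = 0.037). Both use the same CFA libraries. No outlier test applied, since each group has 3 libraries.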

How the results depend on the processing

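None of the log2 differences of the 6 genes that had been called changed sign under any alternative. Over the 6 genes, all comparisons and all alternatives, 1808 values kept their side of the threshold, 41 lost a call and 23 gained one. The number of the 6 genes called for formalin against control in BNST, 0, became 1 with DESeq2 (Crhr1) and 1 with the libraries coded L2 alone (Adcyap1, 1.57, adjusted p = 0.015). With the 9 BNST libraries alone, the number for CFA against control fell from 2 to 1 and for formalin against CFA from 2 to 0. The interaction calls for CFA against control and for formalin against CFA, 1 each, became 0 and 0 without a filter on low counts, and the latter became 3 with the L2 libraries. With 1 library left out at a time, the numbers ranged from 0 to 1 for formalin against control, 1 to 3 for CFA against control and 1 to 3 for formalin against CFA in BNST, 0 to 1 and 0 to 2 for those interactions, 5 to 6 between regions after CFA and 4 to 5 after formalin, with no change elsewhere. The cause was not tested. Over all genes tested, the 57 calls for formalin against control in BNST became 2 to 903 with 1 library left out. The most came without CFA replicate 2 of the BNST, which is not in that comparison. The calls there went from 57 to 409 with DESeq2, 123 with the block within regions and 1 with the 9 BNST libraries alone. With those 9 libraries, the BNST calls for CFA against control went from 2269 to 1352 and for formalin against CFA from 1305 to 466. In mPFC, formalin against control went from 51 to 133 with DESeq2, 252 with the 9 mPFC libraries alone and 13 with the block, CFA against control from 120 to 262 with DESeq2, 191 with L2 and 498 with the 9 mPFC libraries, and formalin against CFA from 177 to 311, 275 and 552 in that order. The interaction for formalin against control went from 30 to 280 with DESeq2, 84 without a filter, 367 with L2, 94 with the block within regions and 53 with the block by animal, and that for CFA against control from 792 to 1642 with L2.

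The codes L1, L2 and L3 stand in the supplementary column names, and what they mean is not given in the sources used here. Only control replicate 3 represents control BNST among the L2 libraries, so that lone sample is assumed to vary like the other groups. There Adcyap1 for CFA against control was 2.84 and Crh 0.16 (adjusted p = 1.9e-05 and 0.66).

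Within a region the replicate numbers name separate mice, and the deviations of same-numbered libraries correlated above 0.1 in 4 of 18 pairs. A replicate block within each region turned both interaction calls of Adcyap1 into 0 (adjusted p = 0.075 and 0.071), gave 3 calls for CFA against control and 3 for formalin against CFA in BNST, with Crhbp added, and lost Crh between regions after CFA (0.53, adjusted p = 0.12). A block by animal, fitted with limma-voom over both regions, changed no call. By Spearman's rho, 4 of the 22 genes chosen by Pearson's r were kept.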
